A study of Bos taurus with 8 samples.

Results

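Motile cilia are hair-like organelles that beat and move fluid or cells, and they are built on an axoneme, a ring of doublet microtubules around a central pair. Dynein arms on the doublets are the motors, radial spokes and the central apparatus control the beat, tektins are filaments within the doublet walls, and intraflagellar transport (IFT) carries parts along the shaft. Multiciliated cells line the oviduct, the uterus and the airways, while most other cells, granulosa cells among them, carry at most a single primary cilium, which needs IFT but lacks the dynein arms and spokes. The roles given below are those known from human, mouse and green algal work.

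The genes described here are those whose array symbol begins with DNAH, DNAI, DNAL (dynein chains), RSPH (radial spoke head), TEKT (tektins), IFT followed by a digit, SPAG (sperm associated antigens) or SPEF (sperm flagellar), and FOXJ1. This gave 42 genes with 53 probes, out of 15229 symbols and 43794 probes on the array. The family was picked with its changes between ages in these arrays already known. Its ratios are therefore a description, with no independent test behind them. The other gene lists used below were also drawn up with earlier results in view. The limma p-values printed for members and listed genes thus only describe the fit.

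The samples were granulosa cells, which surround the oocyte inside the ovarian follicle and make oestradiol. They came from 4 heifers of the Holstein breed, each sampled around puberty, when 8, 11 and 14 months old. Before every collection all heifers received progesterone from a vaginal device, lost their dominant follicle by aspiration and were stimulated with FSH, so no age lacks this treatment. The cells came with the oocytes through a needle passed across the vaginal wall, the RNA came from pools, and it was amplified in a linear manner. What was pooled is not stated in the labels, so n counts the heifers the labels name. Each of 8 arrays of the bovine EmbryoGENE design carried the RNA of a heifer at 8 or 11 months in one dye and that of the same heifer at 14 months in the other, with the younger age in Cy5 for heifers 1 and 2 and in Cy3 for heifers 3 and 4. The text on the study's design tells of embryos at the blastocyst stage and of 10 animals, where the sample labels name granulosa cells, a conflict that was not settled.

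Values are log2 ratios of the younger age over 14 months in the same heifer, so that 1 means a doubling and 0 no difference. A spot counted as above background when its raw intensity lay over 2 SD above the average negative control spot of its channel. Of the 53 probes, 32 for 29 genes were kept, since 3 or more of the 4 heifers passed that limit at some age, and the brightest kept probe stood for its gene. The other 21 probes left 13 genes without a kept probe, and 7 of these probes were above background in none of the 16 channels. A gene seen only where it is high passes such a filter more easily, so counts over the 29 genes do not speak for all 42. At 14 months 19 to 25 of the 29 genes were above background in a channel. A ratio against a dim channel has no exact size, and one between 2 dim channels no reliable level. Median raw intensities were 220 to 329 per channel, 43.2% to 57.3% of all probes were above background, and with 4 arrays a comparison it is their number that limits the precision. All 18 granulosa markers, such as FSHR, CYP19A1 and INHA, were kept, and 16 to 18 of them were above background in every channel.

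The cilia genes were much higher at the younger age in some heifers and about level in others. In heifers 1 to 4 the median log2 ratio of the 29 genes was 0.75, 1.86, -0.04 and -0.12 at 8 months and 0.36, 0.20, -0.03 and 1.49 at 11 months. Heifers 1 and 2 thus stood apart at 8 months, heifer 4 stood apart at 11 months with heifer 1 next, and heifer 3 was near 0 at both ages. The median over all 10201 genes lay between -0.03 and 0.04 on every array. At 8 months 14, 19, 1 and 1 of the 29 genes had a log2 ratio above 1, which is 48.3%, 65.5%, 3.45% and 3.45%, against 12.6%, 15.8%, 5.36% and 6.1% of all genes on the same arrays. At 11 months the counts were 6, 0, 1 and 17 genes, or 20.7%, 0%, 3.45% and 58.6%, against 5.17%, 5.34%, 1.45% and 8.24% of all genes.

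**Figure D1:**
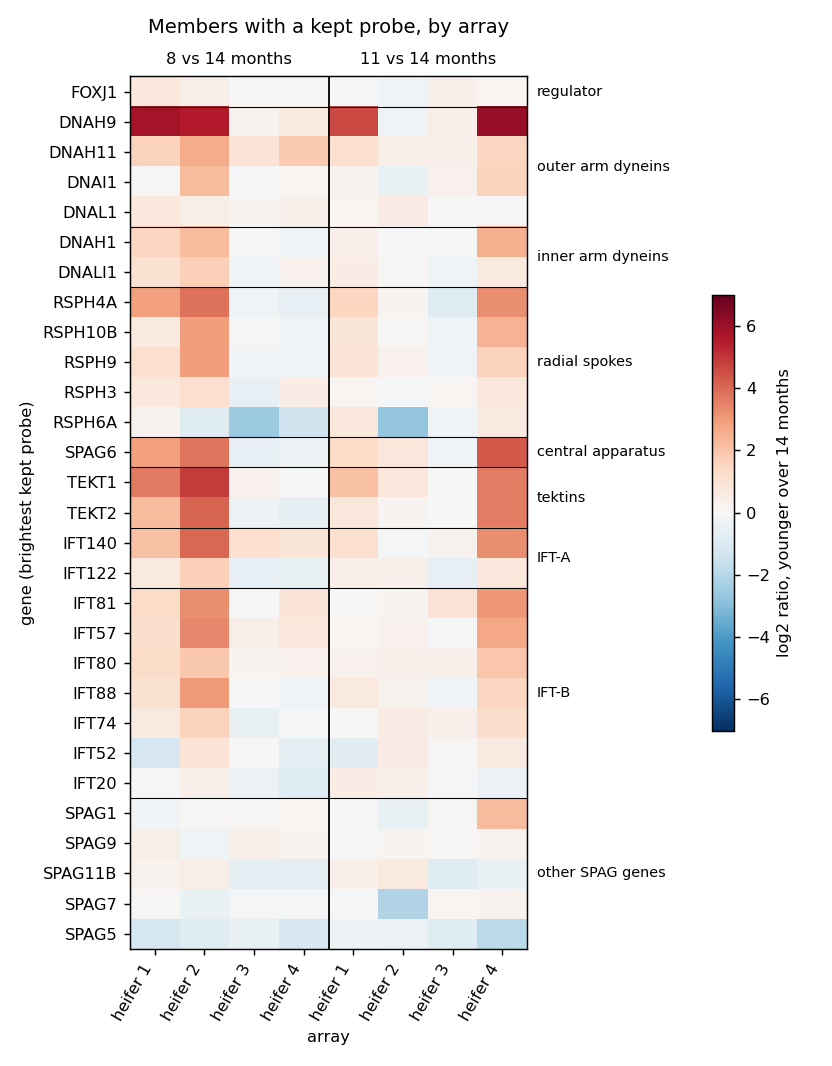
Log2 ratio of the younger age over 14 months (colour) for the 29 genes with a kept probe (rows, grouped by role) on the 8 arrays (columns, 4 heifers for each comparison). Red fills heifers 1 and 2 at 8 months and heifer 4 at 11 months, with medians of 0.75, 1.86 and 1.49, and the rows of FOXJ1 and most other SPAG genes stay pale.

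The model fitted across all kept probes (limma, 8 arrays, a dye term, the heifer as a block, Benjamini-Hochberg adjustment) called 871 of 22675 probes at 8 months, 3.84%, of which 735 (3.24%) were higher and 136 (0.6%) lower than at 14 months. It called 1 of the 32 kept cilia probes, for DNAH11. At 11 months it called 0 probes of any kind (0%), and 1702 probes (7.51%) had an unadjusted p under 0.05, against 5616 (24.8%) at 8 months. For the cilia probes those unadjusted counts were 2 and 9. The rule for the family used these contrasts, so nothing is read from these counts. The fitted median of the 29 genes was 0.69 at 8 months and 0.53 at 11 months, beside 0.01 and -0.01 for all genes. Without heifer 4 the fitted median of the 32 probes at 11 months was -0.01, against 0.44 with all heifers. Both comparisons share each heifer's RNA at 14 months, so their values are only set side by side.

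Among the outer arm dyneins, the motors that drive the beat, the heavy chain DNAH9 had large ratios in some heifers. DNAH9 had log2 ratios at 8 months of 5.81, 5.55, 0.23 and 0.60 from heifer 1 to heifer 4, and of 4.60, -0.27, 0.39 and 6.08 at 11 months. These make means of 3.05 ± 3.04 and 2.70 ± 3.12 (SD, n = 4), so the SD was about as large as the mean at either age (limma adjusted p = 0.172 and 0.661). Its 14-month channel was not above background in heifers 1 and 3 or on the 8-month array of heifer 4, so the sizes there are not exact. At 8 months no heifer lay between 0.60 and 5.55. Heifer 2 went from the high side at 8 months to the level side at 11 months, and heifer 4 went the other way.

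DNAH11, the heavy chain of the outer arms near the base of the cilium, differed from this pattern. DNAH11 had log2 ratios of 1.64, 2.61, 0.97 and 1.84 at 8 months and of 1.11, 0.45, 0.38 and 1.49 at 11 months. It was above 0 in all heifers at both ages, as were TEKT1, IFT80 and IFT81. In heifer 3, where most members were near 0, it gave 0.97 at 8 months and 0.38 at 11 months. Its mean at 8 months was 1.76 ± 0.68 (SD, n = 4), with a limma adjusted p of 0.0191, and at 11 months 0.86 ± 0.53 with an adjusted p of 0.661. The family was picked with these contrasts known, so neither p is a test of DNAH11. The call at 8 months was lost without heifer 3, at a fitted 2.07, and without heifer 4, at 1.61. A fainter DNAH11 probe, which was not kept, gave -0.68, 0.29, 0.32 and 0.26 at 8 months. It was above background in none of the channels, so these ratios have no reliable level and the higher level rests on a single probe.

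DNAI1, an intermediate chain that anchors the arm, had ratios of 0.09, 2.19, -0.10 and 0.14 at 8 months and of 0.23, -0.47, 0.32 and 1.57 at 11 months. It was high in heifer 2 at 8 months and in heifer 4 at 11 months, and near 0 in heifer 1. DNAL1, a light chain, stayed between -0.09 and 0.73 on all arrays.

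Of the inner arm genes, DNAH1, a heavy chain, gave 1.53, 2.19, 0.04 and -0.31 at 8 months and 0.36, -0.03, -0.03 and 2.51 at 11 months. DNALI1, a light intermediate chain, gave 1.08, 1.65, -0.24 and 0.27 and then 0.50, 0.07, -0.31 and 0.69. Both genes were highest in heifers 1 and 2 at 8 months and in heifer 4 at 11 months. A further DNAH1 probe was above background in none of the channels. DNAH2 and DNAH7, inner arm heavy chains without a kept probe, were named after their values were seen. They were above background at 8 months in 1 and 2 heifers and at 14 months in none, so no fold is given. Their measured ratios at 8 months were 0.07, 2.40, 0.22 and 0.10 for DNAH2 and 1.77, 2.19, -0.96 and -0.46 for DNAH7.

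The radial spokes, which pass signals from the central pair to the arms, held 5 kept genes. RSPH4A, a spoke head protein, had ratios of 2.86, 3.78, -0.31 and -0.55 at 8 months and of 1.52, 0.21, -0.87 and 3.26 at 11 months. RSPH10B, another spoke head protein, had 0.69, 2.93, 0.07 and -0.25, then 0.86, 0.07, -0.28 and 2.42. RSPH9, also of the spoke head, had 1.10, 2.93, -0.18 and -0.31, then 0.99, 0.33, -0.23 and 1.61. All of these were above 0 in heifers 1 and 2 at 8 months and in heifers 1 and 4 at 11 months, and were near or below 0 in heifer 3. The spoke stalk protein RSPH3 was nearest to 0 of this class, with 0.74, 1.15, -0.55 and 0.52 and then 0.15, -0.07, 0.13 and 0.79. RSPH6A, a sperm counterpart of RSPH4A that is named here after its values were seen, went its own way, with 0.24, -0.85, -2.58 and -1.40 at 8 months and 0.73, -2.73, -0.25 and 0.64 at 11 months. It was lower at 8 months in 3 of 4 heifers, with a mean of -1.15 ± 1.17 (SD, n = 4) and a limma adjusted p of 0.275. The log2 level of RSPH6A at 14 months differed between arrays, so its ratios are not exact. It was 13.26 on the 8-month array and 11.96 on the 11-month array of heifer 4, and 11.91 and 10.99 in heifer 1.

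SPAG6 sits in the central apparatus, the structure around the central pair. SPAG6 had log2 ratios of 2.90, 3.72, -0.57 and -0.36 at 8 months and of 1.32, 0.77, -0.21 and 4.27 at 11 months. The high heifers were again 1 and 2 at 8 months, then 1 and 4 at 11 months, with heifer 2 below them. On the 11-month arrays SPAG6 was not above background at 14 months in any heifer and was above it at 11 months in 3 of 4, so the size of its ratio at 11 months is not exact (limma adjusted p = 0.664). A fainter SPAG6 probe that was not kept gave ratios from -0.45 to 0.71 over the 8 arrays. The microtubule protein SPEF1, without a kept probe and named after its values were seen, gave 0.91, 3.12, -0.29 and -0.07 at 8 months and 0.73, 0.17, -0.10 and 1.51 at 11 months. It was above background in 1 of 8 channels at 14 months. SPAG16 and SPAG17 of this class had no kept probe either and were above background in at most 1 heifer at any age. SPAG16 gave 0.18, -0.08, -0.81 and -0.35, then 0.26, -0.09, -0.04 and 0.40. SPAG17 gave 0.09, 0.03, 0.46 and 0.41, then 0.31, -0.27, 0.31 and 1.36.

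The tektins followed the same heifers. TEKT1 had ratios of 3.66, 4.88, 0.33 and 0.05 at 8 months and of 2.07, 0.72, 0.04 and 3.60 at 11 months. TEKT2 had 2.22, 4.07, -0.37 and -0.62 at 8 months and 0.81, 0.19, -0.05 and 3.57 at 11 months. TEKT4 had no kept probe and no channel above background at 14 months, and 2 heifers above it at each younger age, heifers 1 and 2 at 8 months and heifers 1 and 4 at 11 months, so no fold is given. TEKT3 and TEKT5, the other tektins on the array, had no kept probe either, with ratios from -1.07 to 0.40.

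IFT genes serve primary as well as motile cilia, and their ratios ranged from high in the same heifers to a mean near 0. The IFT-A complex, which carries cargo back to the base, held 2 kept genes. IFT140 had ratios of 2.08, 4.03, 1.17 and 0.84 at 8 months and of 1.14, -0.11, 0.26 and 3.28 at 11 months. It was above 0 in all heifers at 8 months. IFT122 had 0.68, 1.69, -0.57 and -0.52, then 0.45, 0.37, -0.59 and 0.74.

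The IFT-B complex, which carries cargo to the tip, held 7 kept genes. IFT81 gave 1.33, 3.23, 0.02 and 0.92 at 8 months and 0.02, 0.20, 1.02 and 3.03 at 11 months. IFT57 gave 1.25, 3.36, 0.38 and 0.79, then 0.16, 0.31, -0.13 and 2.69. IFT80 gave 1.28, 1.86, 0.18 and 0.31, then 0.31, 0.34, 0.37 and 1.94. In all of these, heifer 2 was highest at 8 months and heifer 4 at 11 months. IFT52 was nearest to 0 in this class, with -1.15, 0.95, -0.04 and -0.66, then -0.73, 0.59, 0.07 and 0.62. It too was highest in heifer 2 at 8 months and in heifer 4 at 11 months, but below 0 in heifer 1. A dimmer kept IFT52 probe, above background in 0 heifers at 8 months, gave -0.93, -0.19, -0.10 and -0.06 at that age. Probes for a single gene did not always move together. The brighter IFT88 probe averaged 0.96 and 0.54 at 8 and 11 months, and the other kept IFT88 probe averaged -0.04 and -0.01. That other probe was dim, with a mean log2 intensity of 7.68 against 11.40. It was above background in 5 of 8 channels at 14 months, so its ratios have no reliable level.

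FOXJ1, the transcription factor that switches on the motile cilia programme, was higher in heifers 1 and 2 at 8 months, as were most axoneme genes. At 11 months its ratios did not have their pattern. FOXJ1 had ratios of 0.75, 0.39, -0.02 and 0.02 at 8 months and of -0.11, -0.30, 0.38 and 0.16 at 11 months. Its probe was dim. At 8 months its raw intensity was 363, 424, 296 and 311 in heifers 1 to 4, against background limits of 318, 323, 291 and 307. At 14 months on the same arrays it was 177, 265, 257 and 248, against limits of 218, 264, 255 and 247. The sizes of its ratios at 8 months are therefore not exact, and a change in this gene was hard to detect.

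The SPAG symbols also cover genes that are no part of the axoneme, and most of these stayed apart. SPAG5, a mitotic spindle protein, was named after its values were seen, with ratios of -1.21, -0.87, -0.52 and -1.13 at 8 months and of -0.37, -0.42, -0.82 and -1.88 at 11 months. It was lower than at 14 months in all heifers at both ages (limma adjusted p = 0.0744 and 0.661). SPAG9, a scaffold protein of kinase signalling, lay between -0.30 and 0.40. SPAG1, which helps to assemble dynein arms in the cytoplasm, lay between -0.53 and 0.13 except for 2.21 in heifer 4 at 11 months, where most axoneme genes were high too. SPAG11B, a secreted defensin-like protein of the epididymis, lay between -0.83 and 0.68.

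The single channels show which age carried the signal. DNAH9 had a normalized log2 level of 13.05, 14.92, 7.32 and 7.65 at 8 months in heifers 1 to 4, and of 7.23, 9.38, 7.09 and 7.05 at 14 months on the same arrays. At 11 months it was 11.78, 9.27, 7.52 and 13.92, with 7.18, 9.54, 7.13 and 7.84 at 14 months beside it. The younger channel was thus bright where the ratio was high, and heifer 2 alone was above background in DNAH9 at 14 months on both of its arrays. In raw intensity that signal was 775 and 780 in heifer 2, against limits of 264 and 254. In heifer 4 it was above the limit on the 11-month array, at 400 against 305, and below it on the other, at 198 against 247.

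TEKT1 and RSPH4A showed the same side. TEKT1 read 11.03, 12.80, 7.53 and 7.22 at 8 months and 9.71, 8.14, 7.27 and 10.73 at 11 months, and it lay between 7.12 and 7.92 in all 14-month channels. RSPH4A read 9.58, 11.66, 7.02 and 7.01, then 8.78, 7.76, 6.64 and 11.10, with 6.72 to 7.88 at 14 months. The number of the 53 probes above background was 34, 37, 22 and 23 at 8 months, 32, 25, 26 and 40 at 11 months and 22 to 28 at 14 months. Of all probes, 46.82%, 49.94%, 48.31% and 47.94% were above background at 8 months. At 11 months these shares were 43.23%, 45.9%, 48.95% and 57.28%, and at 14 months 45.36% to 51.33%. Heifer 4 at 11 months thus had the highest count of cilia probes and also the highest share of all probes. In bulk RNA, fewer cells of a type and less RNA per cell cannot be told apart.

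**Figure D2:**
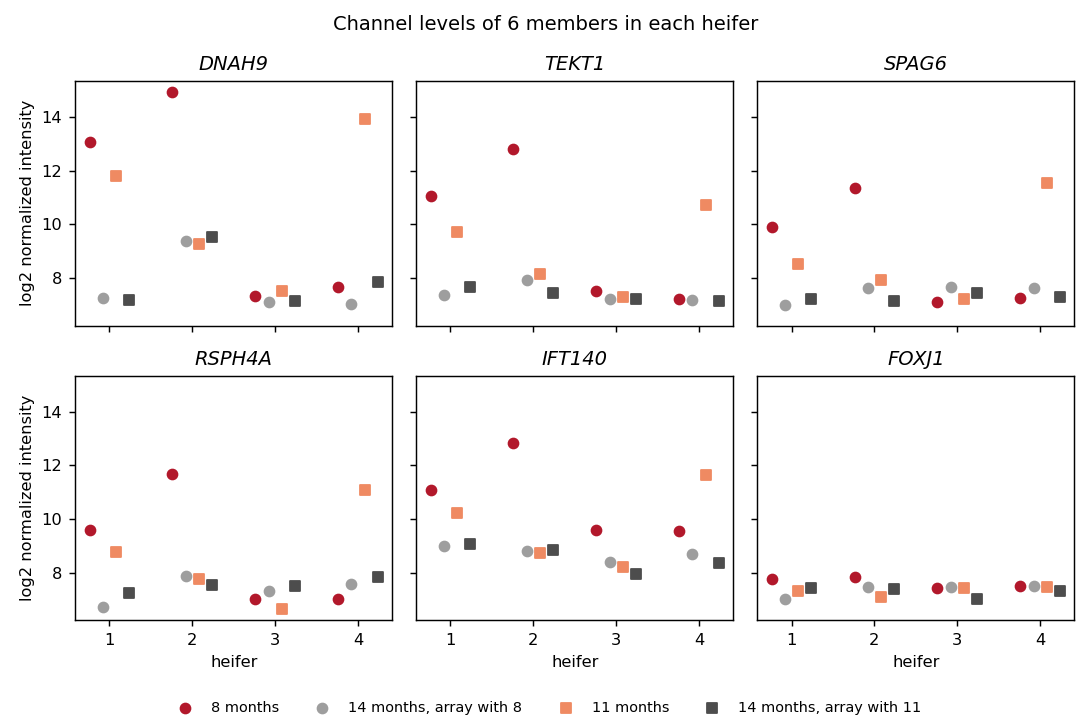
Log2 normalized intensity of 6 members (panels) in each of the 4 heifers (horizontal axis), with 8 and 11 months in colour and the 14-month channel of the same array in grey. DNAH9, TEKT1, SPAG6, RSPH4A and IFT140 stand high at 8 months in heifers 1 and 2 and at 11 months in heifers 1 and 4, and FOXJ1 stays between 7.03 and 7.85.

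The RNA at 14 months was read on 2 arrays per heifer, which gives a check on the older channel. Over all kept probes its levels on both arrays correlated at 0.985, 0.988, 0.956 and 0.963 in heifers 1 to 4, across probes that share an RNA source. The members' median difference between both readings was -0.08, 0.00, 0.09 and 0.15. Their median absolute difference was 0.17 to 0.27, and that of all kept probes 0.19 to 0.25. The differences of single members ran from -1.51 to 1.29. Both readings share a dye and an age, so they do not measure the noise of a ratio between 2 dyes and 2 collections. At 8 months the heifers with high cilia genes were those with the younger RNA in Cy5, so that dye and heifer cannot be told apart there. At 11 months the highest heifer carried it in Cy3 and heifer 2, level in most members, in Cy5.

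Other motile cilia genes outside the named families followed the same heifers. Of a list of 107 such genes, 63 were on the array and 37 were kept, and their median log2 ratio was 1.18, 2.67, 0.09 and -0.01 at 8 months and 0.67, -0.03, 0.00 and 2.18 at 11 months. The model called 0 of them at either age, beside 393 rises and 80 falls at 8 months and 0 calls at 11 months among all 10201 genes. Of the 37 genes 33 and 34 had a fitted ratio above 0, beside 5207 and 5030 of all genes. ROPN1L, a radial spoke protein, gave 4.90, 5.77, 0.09 and -0.02, then 3.82, -0.33, 0.11 and 6.19. CCDC113 and CCDC65, the latter a part of the complex that links doublets, had means of 2.43 ± 2.96 and 2.33 ± 2.45 at 8 months and of 2.02 ± 2.63 and 1.76 ± 2.06 at 11 months (SD, n = 4). The list's summed intensity was 10900 to 223000 at 8 months, 12400 to 156000 at 11 months and 10500 to 17400 at 14 months.

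**Figure D3:**
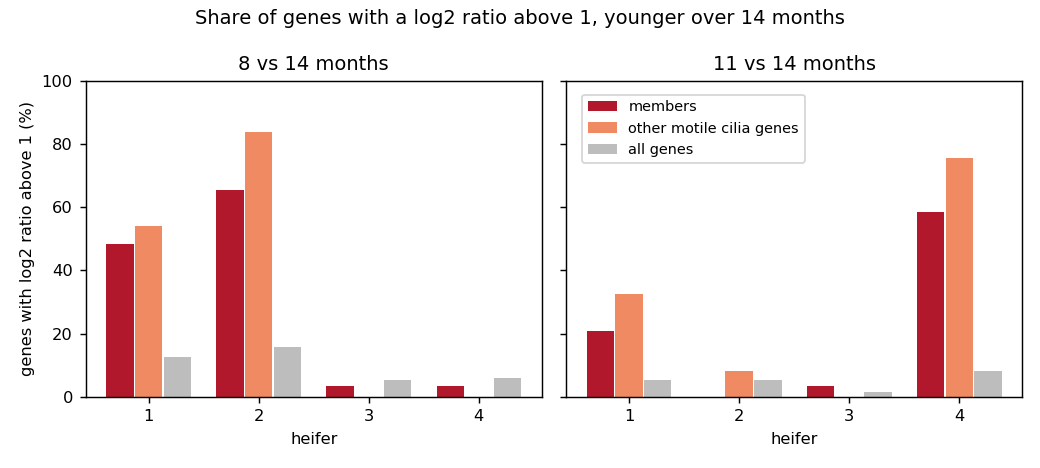
Percent of genes with a log2 ratio above 1 in each heifer (horizontal axis), for the 29 members, the 37 other motile cilia genes and all 10201 genes. At 8 months the members reach 48.3% and 65.5% in heifers 1 and 2 and 3.45% in heifers 3 and 4, and at 11 months they reach 58.6% in heifer 4.

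Genes that drive cells to make many cilia were split. Of 15 in the list 10 were on the array and 8 were kept, and their median lay between -0.44 and 0.16 on all arrays, with 0 called. Among all 10201 genes the model called 393 rises and 80 falls at 8 months and 0 at 11 months. MYB, a transcription factor that acts early in multiciliated cells, gave 3.68, 4.48, -0.33 and -0.91 at 8 months and 2.86, 0.30, 0.01 and 3.00 at 11 months. RFX2, a transcription factor of cilia genes, gave 2.60, 4.27, 0.56 and 0.30, then 0.50, 0.04, 0.15 and 4.65. Both were high in the same heifers as DNAH9, apart from RFX2 in heifer 1 at 11 months. PLK4, the kinase that starts centriole duplication, had means of -0.69 ± 0.37 and -0.42 ± 0.19 (SD, n = 4). Its ratios were below 0 on all 8 arrays, at limma adjusted p = 0.0737 and 0.661.

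By their median, genes of the primary cilium and basal body moved less. Of 32 kept genes, out of 41 on the array and 50 listed, the median was 0.05, 0.94, -0.29 and -0.05 at 8 months and -0.17, -0.03, 0.02 and 0.47 at 11 months. A log2 ratio above 1 was seen in 2, 15, 1 and 1 of them at 8 months and in 2, 1, 1 and 9 at 11 months. In heifer 2 at 8 months and heifer 4 at 11 months 15.8% and 8.24% of all genes were above 1. At 8 months TRAF3IP1, an IFT-B protein, rose with a mean of 2.60 ± 1.57, and WDR19, an IFT-A protein, fell by 1.38 ± 0.58 (SD, n = 4, limma adjusted p = 0.0284 and 0.0439). ARL6, a GTPase that recruits a coat complex to cilia, had a mean of -1.58 ± 0.40 (adjusted p = 0.0505). These were 1 rise and 1 fall among 32 genes, beside 393 rises and 80 falls among all 10201.

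Markers of other cell types that a sample could hold were read beside these values. Of 13 kept genes of oviduct and uterine secretory epithelium, 2 rose at 8 months, beside 393 of all 10201 genes. The list's median was 2.50, 0.46, 0.41 and -0.08, then 0.49, 0.11, 0.50 and 0.71. OVGP1, the oviduct's own glycoprotein, gave 6.07, 5.13, 0.41 and 0.10 at 8 months and 5.84, -0.52, 0.25 and 3.09 at 11 months, the same heifers as DNAH9. FOXA2, a transcription factor of uterine glands, rose in all heifers at 8 months, with 5.37, 5.37, 2.43 and 2.55, and MUC1, a surface mucin, rose with 4.70, 3.60, 1.65 and 1.05 (limma adjusted p = 0.0208 and 0.0271). Other members of the list were below 0 on arrays with high cilia genes, and those that follow are named after their values were seen. In heifer 2 at 8 months LTF, PIGR and BPIFB1 gave -2.01, -1.19 and -2.44. In heifer 4 at 11 months LTF gave -1.90 and PIGR -2.74, and in heifer 1 at 8 months they gave 2.74 and 3.26. The list's summed intensity was 18000 to 109000 at 8 months, 26000 to 82800 at 11 months and 12100 to 63800 at 14 months, with 7 to 12 genes above background in any channel. The part of such cells in the cilia values was not tested.

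Squamous epithelium markers had another distribution over heifers. Of 13 kept genes 9 rose at 8 months, with list medians of 3.43, 0.62, 1.67 and 3.17, then 0.15, 0.23, 0.06 and 0.72. Of all 10201 genes 393 rose at 8 months. KRT4, KRT78 and KRT6A, keratins of squamous layers, averaged 4.29 ± 1.97, 4.34 ± 1.90 and 3.46 ± 2.12 at 8 months (SD, n = 4). They were high in heifers 3 and 4 too, where the cilia genes were level, and heifer 2 was their lowest and the cilia genes' highest. General epithelium markers such as CLDN4, KRT7 and EPCAM had medians of 2.27, 1.86, 1.36 and 0.55, then 0.18, -0.01, 0.37 and 2.24, with 2 of 9 that rose at 8 months. EPCAM gave 4.08, 3.10, 0.30 and -0.80, then 1.78, -0.77, 0.37 and 2.24, high in the same heifers as DNAH9. CLDN4 gave 5.76, 1.28, 2.85 and 2.38, then 1.48, 0.12, -0.09 and 0.52. KRT7 gave 4.14, 2.04, 2.21 and 2.38, then -0.14, -0.54, -0.36 and 2.42. Both were lowest in heifer 2 at 8 months and high in heifers 3 and 4, unlike DNAH9.

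Granulosa markers were lower on the arrays where the cilia genes were highest. Their median was -0.10, -1.11, -0.24 and 0.04 at 8 months and 0.25, 0.05, 0.07 and -1.14 at 11 months, so heifer 2 at 8 months and heifer 4 at 11 months stood below the rest. CYP19A1, the enzyme that makes oestradiol, gave -0.89, -1.88, -0.44 and -0.77, then 0.15, -0.56, 0.25 and -3.13. CDH2, a cadherin that joins granulosa cells, was the 1 of 18 that rose at 8 months, with a mean of 1.53 ± 0.41 (SD, n = 4, limma adjusted p = 0.0130), and HSD17B1 averaged 1.49 ± 1.25 without a call. Among all 10201 genes 393 rose and 80 fell at 8 months. Summed intensity of the 18 genes was 193000 to 274000 at 8 months, 124000 to 307000 at 11 months and 243000 to 293000 at 14 months. Leukocyte markers had medians of 0.14, -1.52, 0.16 and -0.29, then -0.50, -1.27, -0.16 and -0.01, with 0 of 17 called and PTPRC, LYZ and S100A9 the furthest from 0. Whether any of these cells account for the cilia values was not tested.

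**Figure D4:**
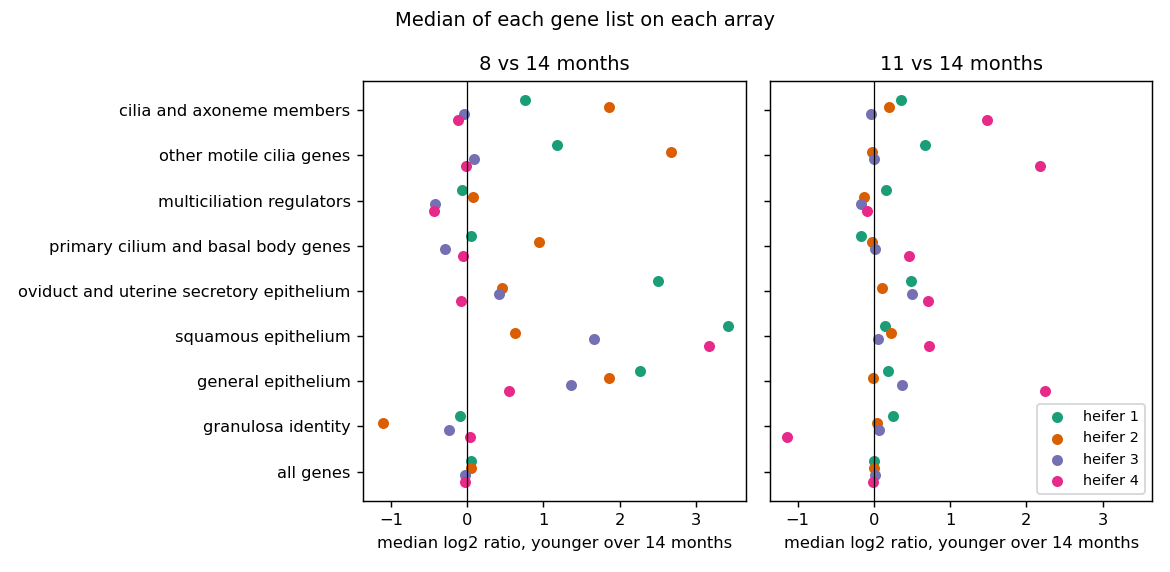
Median log2 ratio of each gene list (rows) on each array, coloured by heifer, for 8 months (left) and 11 months (right). The cilia members and other motile cilia genes are high in heifers 1 and 2 at 8 months and in heifer 4 at 11 months, squamous markers are high in heifers 1 and 4 at 8 months at 3.43 and 3.17, and granulosa markers are lowest in heifer 2 at 8 months and heifer 4 at 11 months.

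The members also differed in how closely they tracked the family. Pearson's r between a member and the members' median over the 8 arrays, a description in which each member is part of the median, ran from 0.99 for TEKT2 to -0.51 for SPAG5, with 0.40 for FOXJ1 and 0.07 for DNAL1. Of 3062 genes outside the family with a log2 ratio above 1 on at least 1 array, the 15 with the pattern most like the members' median had r from 0.983 to 0.989 over the same 8 arrays. They were CYP2D14, CCNA1, IQCD, MEIS2, BBS4, MORN5, CDK2AP2, ADI1, PCBD1, C5H22ORF23, DRC1, TIMP4, ABCG1, CCDC96 and KLHL32. Of these, IQCD, MORN5 and DRC1 stood in the list of other motile cilia genes and BBS4 in that of the primary cilium.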

How the data were processed

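Granulosa cell RNA of 4 heifers was compared on 8 dual-colour arrays. The authors deposited scanner tables that hold, per the file headers, median and mean spot intensity in both channels, without normalization, and a flag column that the authors' software used to leave spots out (22 to 59 per array, also left out here). The authors also deposited a table of log2 ratios, which matched log2 of Cy5 over Cy3 of the scanner values with slopes near 1, so scale and direction are known. How the authors normalized it, and which image software they used, was not given in the sources used here. It served as an alternative.

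Median intensities were background-corrected by normexp (offset 50) in limma 3.58.1 (R 4.3.3), normalized by loess within arrays and signed as younger over 14 months. Background was the mean of 153 negative control spots plus 2 SD per channel. The model had terms for 8 and 11 months against 14, a dye term and the heifer as a random block (correlation 0.159), over 22675 kept probes, with an adjusted p of 0.05 as the threshold. Channel levels were scaled between arrays with Aquantile. Per the labels each animal appears in both comparisons, so the numbers pair the arrays; deviations of a heifer's arrays correlated at 0.378, 0.275, 0.446 and -0.110.

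Gene symbols are those of the old platform annotation: 21790 probes had a symbol and 22004 had none. Members and lists were chosen with earlier results of these data known. In each role class the 3 genes with the highest signed mean over both comparisons and the 1 nearest to 0 are named, with all genes of small classes, and from each list the 3 with the largest absolute mean. Any other gene was chosen after its values were seen. Alternatives changed the background correction, normalization, intensity column, starting table, filter, block, dye term, arrays, array weights, symbols, probes per gene and heifers. Probe and promoter sequences were not analysed here.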

Additional observations from a re-analysis of the deposited data

Results flagged for a closer look

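In 74 groups of 4 heifers (each member gene with a kept probe and the medians of the family and its role classes, per comparison), 6 had a heifer far from the others by Dixon's test, and chance alone marks about 1 in 20 such groups. At 11 months the distant heifer was heifer 4 for IFT80 at a log2 ratio of 1.94, IFT57 at 2.69 and DNAH1 at 2.51, and heifer 2 for SPAG7, a gene named only here, at -2.09. At 8 months it was heifer 2 for DNAI1 at 2.19 and heifer 1 for SPAG1 at -0.193.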

How the results depend on the processing

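The fitted median of the 32 member probes stayed above 0 under all 16 alternatives at 8 months, between 0.28 and 0.85 around 0.52. At 11 months it lay between -0.01 and 0.63 around 0.44, and was below 0 only without heifer 4. Leaving out 1 heifer at a time gave 0.30 to 0.85 and -0.01 to 0.63. Without the heifer as a block the medians were 0.52 and 0.44, with 1 and 0 member probes called, so the block changed no call. Of the member probes 13 were called at 8 months with only the arrays of that comparison and 3 with array weights, and leaving out 1 heifer gave 0 to 1. The call on DNAH11 was lost without heifer 3, at 2.07, and without heifer 4, at 1.61. Over all probes, calls at 8 months went from 871 to 1709 with median centring, 3232 with only those arrays, 3552 with array weights, 1698 without heifer 2, 0 without heifer 3 and 36 without heifer 4; the cause was not tested. At 11 months 0 member probes were called under any alternative. Of 449 values of single member genes at 8 months, 14 passed the threshold and 2 left it under an alternative, 4 moved by more than the spread, and none changed sign after a call. Dim probes such as that of FOXJ1, and the 13 genes without a kept probe, limit what a level can show.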
